A study of Mus musculus with 7 samples.

Results

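The expression of 10 genes of the Nogo and Lingo system, which restrains axon growth and myelination, was examined in cultured mouse oligodendroglia with and without the transcription factor Klf13. The genes were taken by name and are Lingo1, Lingo2, Lingo3, Rtn4, Rtn4r, Rtn4rl1, Omg, Tnfrsf19, Tnfrsf21 and Ngfr. All 10 were found among the 49315 genes of the count files, and all 10 were among the 18352 genes with enough counts for a test.

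Central nervous myelin carries proteins that stop axons from growing, and the same receptor system also acts inside the oligodendrocyte lineage. Nogo (encoded by Rtn4), OMgp (Omg) and MAG (Mag) are ligands of the Nogo receptor NgR1 (Rtn4r), a lipid-anchored surface protein that has no cytoplasmic part. NgR1 therefore signals through partners that span the membrane, namely LINGO1 together with p75 (Ngfr) or TROY (Tnfrsf19), and the signal runs to the GTPase RhoA and its kinases. LINGO1 and the death receptor DR6 (Tnfrsf21) are also known as brakes on oligodendrocyte maturation.

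RNA came from primary oligodendroglia of newborn mouse brain, 4 cultures from wildtype controls (Klf13-wt) and 3 from Klf13-deficient pups (Klf13-ko). The deletion is constitutive, so that other cells in a knockout culture lack Klf13 as well. Progenitors were shaken off mixed glial cultures, depleted of microglia and kept in SATO medium with thyroid hormones for 6 days, conditions under which they differentiate, and both groups shared this treatment. Each library is labelled as a biological replicate, and how many pups went into a culture is not given in the sources used here.

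The libraries held 24507471 to 59596479 counts on genes. Klf13 itself was counted 10670 to 12000 times in control libraries and 802 to 961 times in knockout libraries, as normalized counts. Normalized counts are counts scaled to a common library size. Levels of different genes are compared only as RPKM, that is counts scaled both by the length of the counted exons and by the size of the library. Ribosomal RNA reads gather on Gm42418, Gm23935 and Lars2, and these genes took 14.1% to 17.95% of the counts in 4 libraries (replicates 1 and 4 of the controls, replicates 1 and 3 of the knockouts) and 6.03% to 7.56% in the other 3.

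The cell types in the cultures were checked by marker genes. All 7 markers of mature oligodendrocytes were lower in the knockout, with a log2 fold change of -1.78 for Mbp, and their summed RPKM was 3869 to 4570 in the controls and 1089 to 1219 in the knockouts. Of 6 progenitor markers, 1 was higher (Ptprz1, 0.33) and the other 5, Gpr17 among them (0.26), did not pass the test. Neuron markers were higher for 7 of 10 genes, among them Map2 (0.73), Dcx (2.43) and Tubb3 (0.72), the highest of them in RPKM, while Elavl4 (0.33), Nefl (-0.45) and Nefm (-0.73) did not pass. The summed RPKM of the neuron markers was 85.3 to 107.8 in the controls and 170.5 to 228.7 in the knockouts. Astrocyte markers were higher for 7 of 8 genes, Gfap included (0.66), while S100b did not pass (-0.54), with a summed RPKM of 1074 to 1232 and 1299 to 1481. None of the 8 microglia markers, which include C1qa and C1qb, passed the test, but their summed RPKM was 1051 in control replicate 3 and 227.5 to 257.6 in the other controls. Of 8 fibroblast and mural cell markers, Col1a1 and Col1a2 among them, Dcn alone passed, as lower, and their summed RPKM, of which Acta2 made up the most, ran from 85.7 to 242.0 in the controls and from 45.1 to 86.9 in the knockouts. Of 6 tested Schwann cell markers, among them Sox2 and Pmp22, Egr2 alone was lower, and of 3 tested endothelial markers, among them Kdr and Cdh5, Cdh5 alone was lower. Cldn5, which defines brain endothelium, had on average 0 normalized counts in control libraries and 0.229 in knockout libraries. Acta2, Tubb3, Elavl4, Nefl, Nefm, Dcn, Egr2 and Cldn5 are named after their values were seen. The part of these cell types in the results below was not tested, and in bulk RNA fewer cells of a type and less RNA per cell cannot be told apart.

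**Figure D1:**
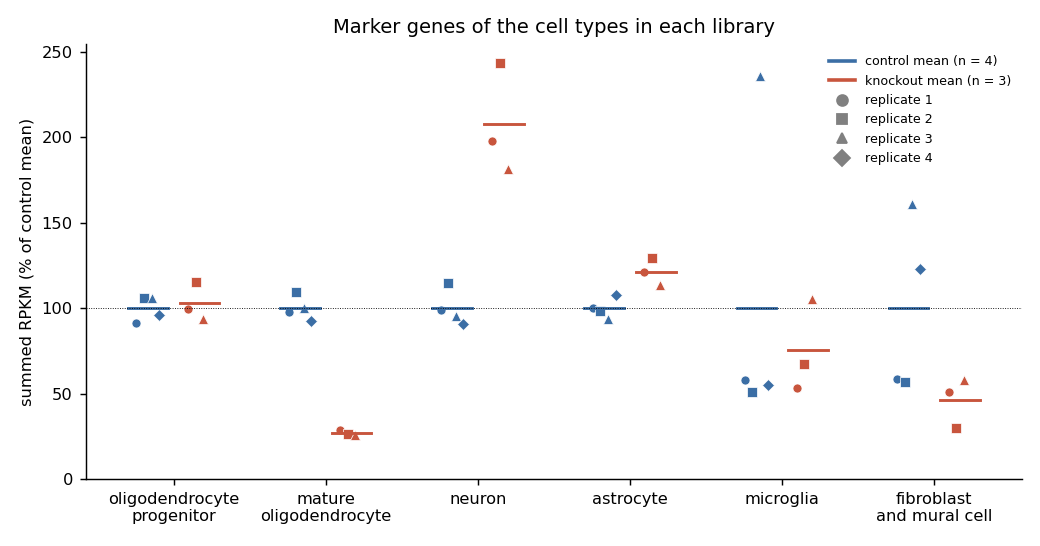
Summed RPKM of the marker genes of 6 cell types in each library, as percent of the control mean (vertical axis), with controls in blue, knockouts in red, 1 symbol per replicate number and a line at each group mean. The 3 knockout libraries lie below all controls for mature oligodendrocyte markers and above all controls for neuron and astrocyte markers, and control replicate 3 stands apart for microglia markers.

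For 8 of the 10 genes a RefSeq promoter window was at hand on GRCm38.p6, and the 250 bases before each start site were searched on both strands for the Klf motif used in the study. Its letters are CCGCCC, with A allowed for the leading C and with A or T allowed for the G. The unchanged form is also the GC box GGGCGG read on the other strand, so that motif and box overlap. Rtn4rl1 and Omg were not matched to a window. At least 1 match was found in 72.6% of all 32817 windows searched, and the median was 1 match. Shown are, of the windows without annotated exons, those of both genes with the most matches (Rtn4r and Lingo1), of the gene with the smallest p (Rtn4) and of the gene with the steepest fall (Lingo2), each on its own strand from 5′ to 3′ and with the matches in capitals.
Rtn4 (chr11:29692648-29692897, plus strand, 4 matches): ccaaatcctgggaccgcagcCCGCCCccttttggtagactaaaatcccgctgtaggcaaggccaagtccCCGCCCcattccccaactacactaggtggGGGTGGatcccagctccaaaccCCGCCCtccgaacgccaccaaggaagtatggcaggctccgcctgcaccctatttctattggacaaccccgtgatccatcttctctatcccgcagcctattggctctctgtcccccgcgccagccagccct
Rtn4r (chr16:18127392-18127641, plus strand, 12 matches): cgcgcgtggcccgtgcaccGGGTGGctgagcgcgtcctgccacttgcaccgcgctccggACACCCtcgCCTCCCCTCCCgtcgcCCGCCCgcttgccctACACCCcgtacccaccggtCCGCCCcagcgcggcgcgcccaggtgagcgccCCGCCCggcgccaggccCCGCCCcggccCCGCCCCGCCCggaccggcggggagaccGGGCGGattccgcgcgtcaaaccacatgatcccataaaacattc
Lingo1 (chr9:56635649-56635898, minus strand, 9 matches): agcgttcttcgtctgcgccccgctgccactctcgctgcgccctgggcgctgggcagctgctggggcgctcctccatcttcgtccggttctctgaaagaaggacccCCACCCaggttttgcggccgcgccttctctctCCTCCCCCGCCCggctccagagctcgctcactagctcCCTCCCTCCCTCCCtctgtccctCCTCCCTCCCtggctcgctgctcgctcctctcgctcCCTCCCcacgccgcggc
Lingo2 (chr4:35845205-35845454, minus strand, 0 matches): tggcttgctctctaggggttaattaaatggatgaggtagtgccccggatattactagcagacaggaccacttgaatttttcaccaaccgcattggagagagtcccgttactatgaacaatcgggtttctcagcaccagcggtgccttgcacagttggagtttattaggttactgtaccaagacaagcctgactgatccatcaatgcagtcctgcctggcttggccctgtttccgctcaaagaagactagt

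At least as many matches as in the Rtn4r window were held by 0.262% of all windows, at least as many as in the Lingo1 window by 1.54% and at least as many as in the Rtn4 window by 21.3%. The windows are rich in G and C to different degrees, with 77.2%, 70.4% and 61.2% in these genes and 48.4% in Lingo2. The remaining windows held 8 matches in Ngfr, 3 in Tnfrsf21, 2 and 6 at the start sites of Tnfrsf19, 0 and 2 at those of Lingo3, 7 at the other site of Lingo1, 0 at the other site of Lingo2, and 4 and 0 at the other sites of Rtn4. A match is a string of letters and not a bound site.

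In the Klf13 knockout, 4 of the 10 genes were lower and 1 was higher by the quasi-likelihood test of edgeR, with adjusted p at most 0.05. Lingo2, Rtn4, Omg and Tnfrsf21 fell, Tnfrsf19 rose, and Lingo1, Lingo3, Rtn4r, Rtn4rl1 and Ngfr did not pass. With the replicate number as a block 4 were lower and 0 higher, since Tnfrsf19 did not pass. Control replicate 4 has no knockout of its number and does not inform the group difference in that fit. Of all tested genes 12.2% were lower and 11.6% were higher, 23.8% in all. The log2 fold changes of the 5 genes that passed ran from -0.97 to 0.28, so that 0 of the 10 genes reached an absolute log2 fold change of 1 together with the adjusted p, which 7.05% of all tested genes did. The median log2 fold change was -0.01 over the 10 genes and -0.0037 over all tested genes. The values of control and knockout libraries did not overlap in these same 5 genes, against 36.2% of all tested genes. All 7 markers of mature oligodendrocytes were lower as well. Their part in the lower values of Lingo2, Rtn4, Omg and Tnfrsf21 was not tested.

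**Figure D2:**
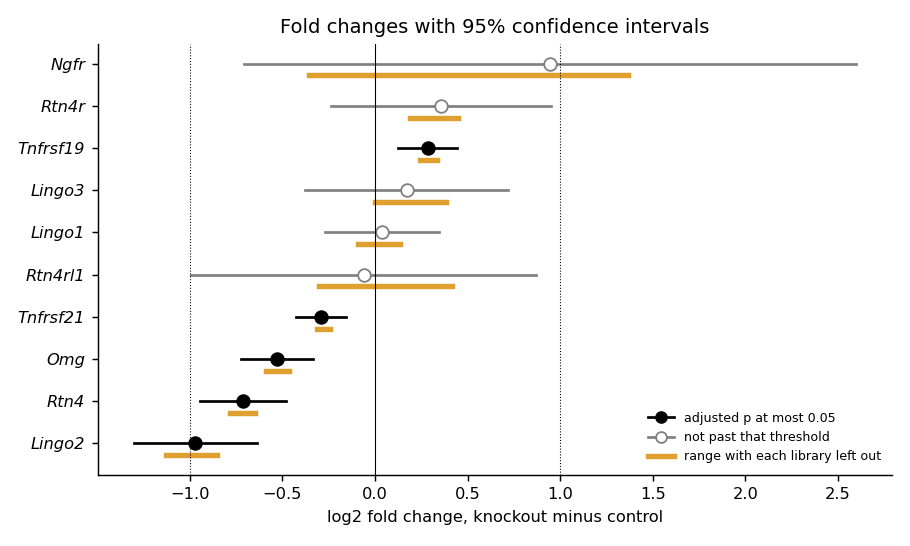
Log2 fold change of each of the 10 genes, knockout minus control (horizontal axis), with its 95% confidence interval as a line, filled where the adjusted p was at most 0.05, and the range with each library left out as a yellow bar. The intervals of Lingo2, Rtn4, Omg and Tnfrsf21 lie below 0 and that of Tnfrsf19 above it, while the interval of Ngfr runs from -0.71 to 2.60.

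Per length, Rtn4 was the most abundant of the 10 genes in both groups, with 165.6 ± 15.9 RPKM in the controls (SD, n = 4) and 101.0 ± 8.90 in the knockouts (SD, n = 3). In the controls Tnfrsf21 (61.5 RPKM), Omg (31.3), Tnfrsf19 (25.8) and Lingo1 (7.99) followed, then Lingo2 (2.11), Rtn4rl1 (1.81), Lingo3 (1.44), Ngfr (0.365) and Rtn4r (0.342). Neighbours whose control libraries overlapped in RPKM were Omg and Tnfrsf19, Lingo2 and Rtn4rl1, Rtn4rl1 and Lingo3, and Ngfr and Rtn4r. The order of these levels differed in the knockouts, where Tnfrsf19 (30.02 to 33.1 RPKM) lay above Omg (20.9 to 22.9 RPKM) and Lingo2 (0.909 to 1.34 RPKM) lay below Lingo3 (1.36 to 1.97 RPKM). There the neighbours that overlapped were Rtn4rl1 and Lingo3, Lingo2 and Ngfr, and Ngfr and Rtn4r. The classical receptor Rtn4r had the lowest mean RPKM in both groups, and its co-receptor Lingo1 had 16.8 to 32.2 times its RPKM in the controls and 18.3 to 20.4 times in the knockouts. The summed RPKM of the 10 genes was 278.4 to 312.1 in the controls and 205.1 to 231.3 in the knockouts, and Rtn4 made up 52.3% to 57.7% of that sum in the controls and 45.4% to 47.9% in the knockouts.

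**Figure D3:**
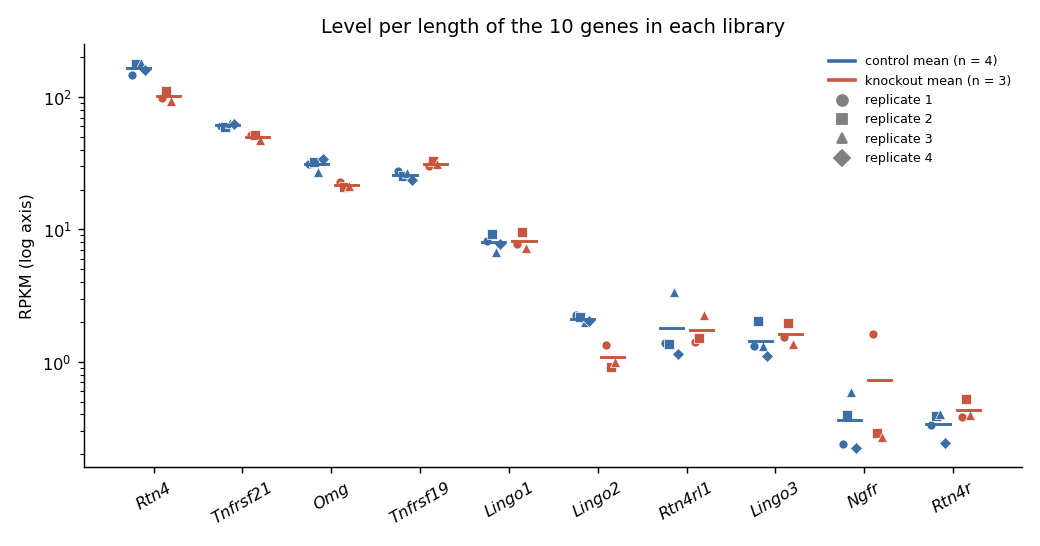
RPKM of the 10 genes in each library on a log axis (vertical axis), ordered by the control mean, with controls in blue, knockouts in red, 1 symbol per replicate number and a line at each group mean. Rtn4 lies highest at 93.2 to 180.1 RPKM, and Rtn4r lies lowest of the 10 in both groups by its mean.

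Both ligand genes were lower. Rtn4 encodes the reticulon Nogo, which shapes the endoplasmic reticulum and, as Nogo-A on oligodendrocytes, inhibits axon growth, and its gene (GRCm38, chromosome 11, 29692947 to 29744331) is on the plus strand. Control replicates 1 to 4 gave 44690, 54220, 55330 and 49260 normalized counts of Rtn4, and knockout replicates 1 to 3 gave 30460, 34010 and 28630. Every knockout library lay below every control. The log2 fold change was -0.71 (standard error 0.10, 95% confidence interval -0.94 to -0.48, adjusted p = 0.00349), the smallest p of the 10 genes, at rank 647 of all tested genes. GENCODE M21 lists 6 coding transcripts of Rtn4, and counts per gene do not separate Nogo-A from the shorter forms. Of its 6991 exon bases, 1284 are shared with exons of Eml6, which runs on the opposite strand from 29743048 to 30026033, and since the counting is not stated to use strand, reads there cannot be told apart. Eml6 had on average 906 normalized counts in the controls and 1080 in the knockouts (log2 fold change 0.25, adjusted p = 0.0515), and how many reads came from the shared bases was not tested.

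Omg encodes OMgp, a lipid-anchored glycoprotein of oligodendrocytes and neurons, and lies on chromosome 11 from 79500982 to 79504084 inside Nf1, on the opposite strand. The control libraries gave 3054, 3175, 2680 and 3355 normalized counts, the knockout libraries 2244, 2046 and 2085. The groups did not overlap, and knockouts averaged 69.3% of controls. The log2 fold change was -0.53 (standard error 0.08, 95% confidence interval -0.73 to -0.33, adjusted p = 0.00555). Nf1, the tumour suppressor gene around it, shares 0 exon bases with Omg and had a log2 fold change of -0.23 (adjusted p = 0.273).

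Mag, the gene of the remaining classical ligand, fell from 52790 ± 7402 normalized counts (SD, n = 4) to 8195 ± 464 (SD, n = 3), and its log2 fold change was -2.69 (adjusted p = 3.33e-05). The RPKM of Rtn4 was 0.505 to 0.639 times that of Mag in the controls and 2.04 to 2.43 times in the knockouts. For Omg the ratio to Mag was 0.0917 to 0.137 and 0.458 to 0.492. These ratios were chosen after the values were seen and are given without a test.

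Neither of the Nogo receptor genes, Rtn4r and Rtn4rl1, passed the test. Rtn4r, on chromosome 16 from 18127642 to 18152408, gave 28.4, 33.2, 34.3 and 20.6 normalized counts in control libraries and 32.5, 44.7 and 33.5 in knockout libraries. The groups overlapped, and with only 18 to 65 counts in a library the 95% confidence interval of the log2 fold change was wide, from -0.24 to 0.95. Rtn4rl1 encodes NgR3, a relative of NgR1 that binds chondroitin sulfate proteoglycans, and lies on chromosome 11 from 75193783 to 75267769. Its control libraries gave 213, 212, 518 and 179 normalized counts, its knockout libraries 219, 234 and 351. Replicate 3 was highest in either group. The log2 fold change of -0.06 had an interval from -0.99 to 0.87 and became 0.42 without control replicate 3, the library with the highest microglia markers. Summed RPKM of those markers was 1051 there and 470.2 in knockout replicate 3, against 227.5 to 300.6 in the other 5 libraries, and the part of these cells in Rtn4rl1 was not tested.

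The Lingo genes encode transmembrane proteins with leucine-rich repeats and an immunoglobulin domain, and of the 3 studied here Lingo2 alone passed the test. Lingo2, on chromosome 4 from 35706647 to 36951747, gave 817, 801, 724 and 741 normalized counts in control libraries and 489, 331 and 365 in knockout libraries. All knockout libraries lay below all controls, with a mean of 51.3% of the control mean. The log2 fold change was -0.97 (standard error 0.14, 95% confidence interval -1.30 to -0.64, adjusted p = 0.00432), the steepest fall of the 10 genes. The span of Lingo2 also holds Gm12369, Gm12370, Mir876, Mir873a, Mir873b and Gm23314, which shared 0 exon bases with it and had at most 5 counts in a library.

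Lingo1, the co-receptor of NgR1, lies on chromosome 9 from 56618475 to 56796468. Control libraries gave 1703, 1904, 1402 and 1615 normalized counts, knockout libraries 1614, 1992 and 1490. Knockout replicate 2 was the highest of all, and the other knockouts lay within the control range. The log2 fold change of 0.04 (95% confidence interval -0.27 to 0.35, adjusted p = 0.870) leaves room for changes of that size in either direction. Lingo3, on chromosome 10 from 80832807 to 80844039, gave 199.8, 306, 198 and 167 normalized counts in control libraries and 231, 298 and 205 in knockout libraries. Here too the groups overlapped, with an interval from -0.38 to 0.72. The RPKM of Lingo2 was 0.239 to 0.293 times that of Lingo1 in the controls and 0.0945 to 0.172 times in the knockouts, without overlap, whereas the ratio of Lingo3 to Lingo1 overlapped, at 0.142 to 0.221 and 0.189 to 0.205. A test of these ratios was not made, because they were chosen after the values were seen.

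**Figure D4:**
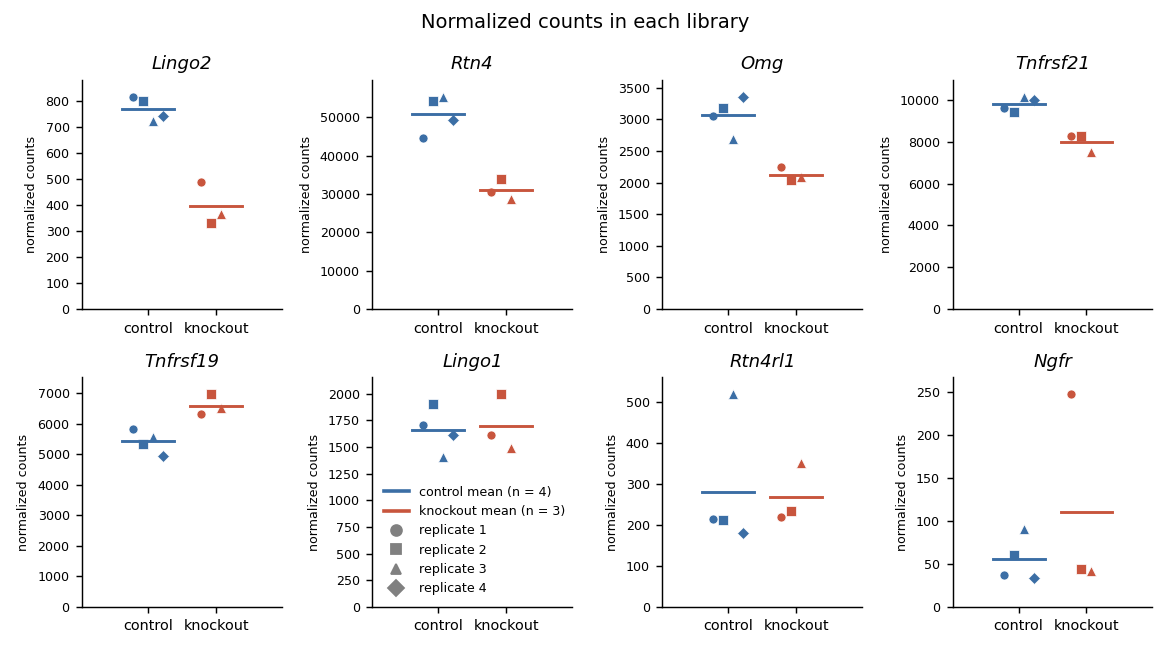
Normalized counts (vertical axes, from 0) of 8 of the 10 genes in each library, with controls in blue, knockouts in red, 1 symbol per replicate number and a line at each group mean. Lingo2, Rtn4, Omg and Tnfrsf21 are lower and Tnfrsf19 is higher in all 3 knockout libraries, while single libraries stand apart for Rtn4rl1 (control replicate 3 at 518) and Ngfr (knockout replicate 1 at 247).

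Of the TNF receptor genes, Tnfrsf21 fell, Tnfrsf19 rose and Ngfr did not pass. Tnfrsf21 encodes DR6, a receptor with a death domain that restrains oligodendrocyte maturation and axon survival, and lies on chromosome 17 from 43016555 to 43089188. Control libraries held 9597, 9439, 10150 and 9997 normalized counts, knockout libraries 8258, 8251 and 7519. The decrease was small but without overlap between the groups, and the log2 fold change was -0.29 (standard error 0.06, 95% confidence interval -0.43 to -0.16, adjusted p = 0.0121). Without knockout replicate 3 the log2 fold change was -0.24 and the adjusted p 0.0573.

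Tnfrsf19 encodes TROY, which can take the place of p75 beside NgR1 and LINGO1, and lies on chromosome 14 from 60963834 to 61046855. Control libraries held 5826, 5333, 5555 and 4949 normalized counts of this gene, knockout libraries 6301, 6956 and 6508. All knockout libraries lay above all controls, and the mean was 121.6% of the control mean. The log2 fold change was 0.28 (standard error 0.07, 95% confidence interval 0.12 to 0.44, adjusted p = 0.0249). This call was not kept with the replicate number as a block (0.24, adjusted p = 0.0700), nor without control replicate 2 (0.28, adjusted p = 0.0562), knockout replicate 2 (0.24, adjusted p = 0.0905) or knockout replicate 3 (0.30, adjusted p = 0.0581). The RPKM of Tnfrsf21 was 2.17 to 2.66 times that of Tnfrsf19 in the controls and 1.52 to 1.73 times in the knockouts. Astrocytes also express Tnfrsf19, and 7 of the 8 astrocyte markers rose in the same libraries. The part of astrocytes in Tnfrsf19 was not tested.

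Ngfr encodes p75, the neurotrophin receptor that also serves NgR1, and lies on chromosome 11 from 95568818 to 95587735. It was scarce in 6 of the 7 libraries, with 36.5, 60.3, 90.3 and 33.7 normalized counts in control libraries and 247, 44.0 and 41.1 in knockout libraries. Knockout replicate 1, with 137 counts, stood above all other libraries and set the log2 fold change of 0.95 (95% confidence interval -0.71 to 2.60, adjusted p = 0.388). Without that library the log2 fold change was -0.36. Summed RPKM of Schwann cell markers was 159.2 in knockout replicate 1 and 137.6 to 220.8 in the other libraries, but Sox2, which is not particular to these cells, made up 130.4 RPKM of the former. Foxd3, a neural crest gene of the same list with too few counts for a test, had 2.70, 6.03, 24 and 1.87 normalized counts in control libraries and 18.1, 5.50 and 1.52 in knockout libraries, and is named after its values were seen. Control replicate 3 and knockout replicate 1 were thus the highest of their groups for both Ngfr and Foxd3, and the part of such cells in Ngfr was not tested. Summed RPKM of fibroblast and mural cell markers was 77.0 in knockout replicate 1 and 45.1 to 242.0 in the other libraries.

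Genes whose levels ran most like those of Rtn4 over the 7 libraries were Fam98a, Ddr1, Sema7a, Slc9a3r2 and Cpox, with Pearson correlations of log2 CPM of 0.9992, 0.9978, 0.9970, 0.9967 and 0.9953 (n = 7 libraries). They are the 5 highest of all tested genes, and the correlation includes the difference between the groups. The genes were chosen by this correlation, so that a shared order of libraries is part of the choice. In all 5, as in Rtn4, control replicates 2 and 3 were highest and control replicate 4 came next. Control replicate 1 was the lowest control, above all knockouts. Their log2 fold changes ran from -1.91 for Slc9a3r2 to -0.58 for Fam98a. Sema7a encodes a lipid-anchored semaphorin, Ddr1 a collagen receptor of oligodendrocytes, and Cpox an enzyme of heme synthesis.

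Further genes of the system were looked at in 5 lists, whose choice is described with the processing. Over all tested genes 12.2% were lower and 11.6% higher, the shares to set beside the counts in each list. Of 14 other ligands, receptors and modulators of Nogo receptors, 1 was lower, 4 were higher and 9 did not pass, and their median log2 fold change was 0.45, against -0.0037 over all tested genes. The lower gene was Mag. Lgi1, which encodes a secreted antagonist of NgR1, rose from 115 ± 78.2 normalized counts (SD, n = 4) to 468 ± 75.4 (SD, n = 3), and its log2 fold change was 2.03 (adjusted p = 0.0291, standard error 0.52). Olfm1, whose secreted product binds NgR1, rose from 3988 ± 479 to 6539 ± 1095 (log2 fold change 0.71, adjusted p = 0.00917). Cntnap1 (0.60) and Ptprf (0.50) were higher as well. Lgi1 and Olfm1 are also neuronal genes, and 7 of the 10 neuron markers rose in the same libraries. The part of neurons in Lgi1 and Olfm1 was not tested. Lingo4 and Rtn4rl2, the remaining relatives of the Lingo and Nogo receptor genes, did not pass, with log2 fold changes of 0.51 (adjusted p = 0.0654) and 0.43 (adjusted p = 0.259).

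None of the 3 reticulon relatives of Rtn4 passed as lower. Among them Rtn2 and Rtn1 were higher and Rtn3 did not pass. Rtn2 rose from 467 ± 138 normalized counts (SD, n = 4) to 1166 ± 224 (SD, n = 3), and its log2 fold change was 1.32 (adjusted p = 0.0100, standard error 0.25). Rtn1, a reticulon of neurons, had a log2 fold change of 0.31 (adjusted p = 0.0281). Rtn3 had 21080 ± 710 and 21410 ± 722 normalized counts, and the RPKM of Rtn4 was 1.51 to 1.97 times that of Rtn3 in the controls and 1.00 to 1.13 times in the knockouts.

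The receptors act on the cytoskeleton through the RhoA and ROCK pathway. Of its 20 listed genes, 6 were lower, 1 was higher and 13 did not pass, with a median of -0.13. Over all tested genes 12.2% were lower and 11.6% higher, with a median of -0.0037. Wnk1, a kinase reported to bind LINGO1, fell from 24220 ± 702 normalized counts (SD, n = 4) to 16790 ± 1811 (SD, n = 3), and Rock1, a kinase activated by RhoA, fell from 5200 ± 260 to 3670 ± 293. Their log2 fold changes were -0.53 (adjusted p = 0.00475) and -0.50 (adjusted p = 0.00390). The other lower genes, Arhgdia, Cit, Arhgef11 and Ppp1r12a, lay between -0.36 and -0.24. Kalrn, which encodes an exchange factor for small GTPases, rose from 708 ± 207 to 1644 ± 177, a log2 fold change of 1.22 (adjusted p = 0.00893). Rhoa itself was lower in all 3 knockout libraries than in any control, with a log2 fold change of -0.25, but did not pass (adjusted p = 0.0638).

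Of 16 genes of neurotrophins, their other receptors and p75 adaptors, 13 were tested. Of these, 3 were lower, 2 were higher and 8 did not pass, with a median of -0.28. Over all tested genes 12.2% were lower and 11.6% higher, with a median of -0.0037. Sort1, the partner of p75 in binding precursor neurotrophins, fell from 14460 ± 1729 normalized counts (SD, n = 4) to 8664 ± 222 (SD, n = 3), and its log2 fold change was -0.74 (adjusted p = 0.00265). Traf6 and Aph1a, a p75 adaptor and a subunit of the secretase that cleaves p75, were lower, with log2 fold changes of -0.34 and -0.28. Ntrk2, the receptor of brain-derived neurotrophic factor and abundant in astrocytes, rose from 17610 ± 2329 to 28290 ± 1564 (log2 fold change 0.68, adjusted p = 0.00559), and Maged1 was higher by 0.27.

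Of 10 further genes around the TNF receptors, 9 were tested. Of these, 2 were lower, 1 was higher and 6 did not pass, with a median of -0.29. Over all tested genes 12.2% were lower and 11.6% higher, with a median of -0.0037. App, whose product has been proposed as a ligand of DR6, fell from 54960 ± 7508 normalized counts (SD, n = 4) to 31270 ± 5383 (SD, n = 3), and its log2 fold change was -0.81 (adjusted p = 0.00897). Tnfrsf12a, the receptor of TWEAK, fell from 1337 ± 236 to 727 ± 79.9 (log2 fold change -0.88, adjusted p = 0.00715). Edar, the ectodysplasin receptor, rose from 13.8 ± 7.12 to 78.6 ± 18.7 (log2 fold change 2.51, adjusted p = 0.00559).

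**Figure D5:**
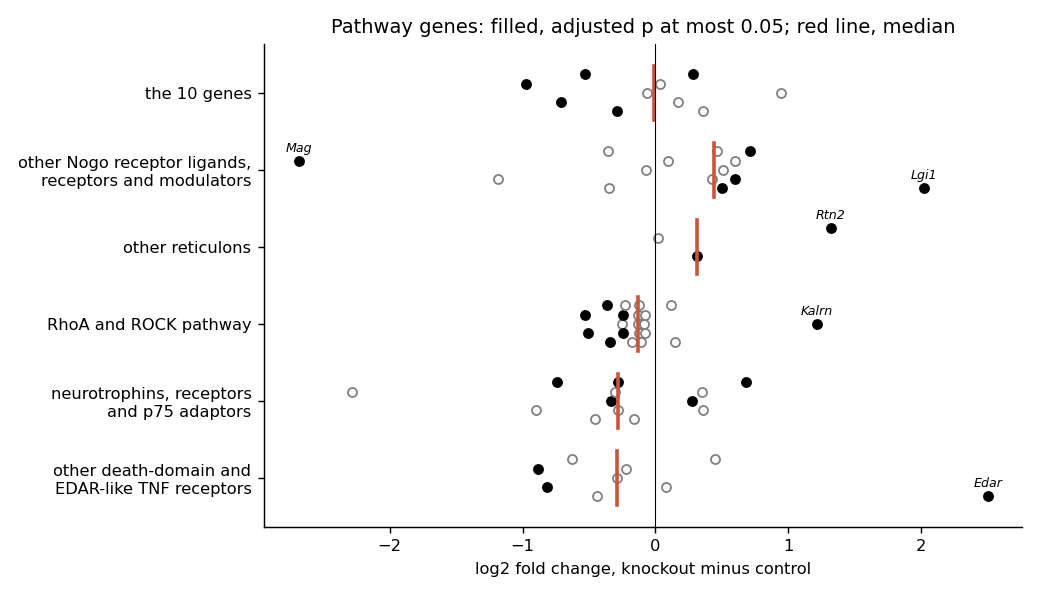
Log2 fold changes, knockout minus control (horizontal axis), of the 10 genes and of the tested genes in the 5 other lists, filled where the adjusted p was at most 0.05, with a red line at the median of each list and names for genes that passed and lie past 1 in size. The medians lie between -0.29 and 0.45, and genes that passed lie on both sides of 0 in each list except the other reticulons.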

How the data were processed

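Per the labels and methods, reads were trimmed (Trimmomatic 0.36) and aligned to GRCm38 (STAR 2.5.2b). The authors counted unique hits within exons with featureCounts of Subread 1.5.2, and deposited whole-number counts per gene, 1 file per library, without normalization. The annotation release and the strand setting are not given in the sources used here. Symbols were found for 48970 of 49315 identifiers.

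Genes were filtered with filterByExpr and fitted in R 4.3.3 with edgeR 4.0.16 (TMM factors, robust quasi-likelihood test, group as the only term), with Benjamini-Hochberg adjustment over 18352 genes. The procedure was tested on simulated counts. Precision is limited by counting error for genes with few counts and otherwise by the number of replicates. P-values set the group difference against the spread between these cultures, for which the number of pups in each is not given.

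Over the tested genes, which are not independent, deviations from group means correlated at 0.11, 0.46 and 0.17 between libraries with the same replicate number. Each exceeded 0.1, the rule set for it, and the number was also fitted as a block. Pairs with different numbers ran from -0.53 to 0.20. The highest of them, control replicate 4 with knockout replicate 1, exceeded the same-number pairs of replicates 1 and 3. The rule therefore does not establish a pairing, and the labels do not say what a number shares. Other alternatives were DESeq2 1.42.0, other scaling factors and filters, each library left out, and the ribosomal RNA share as a covariate. The 4 libraries with over 10% of counts on these RNA genes were fitted alone, an alternative chosen after seeing the data.

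The 10 genes and all lists were chosen with earlier results of these data known. Named were the 10 genes, the 3 genes of each list that passed with the largest changes, genes overlapping one of the 10, the 2 markers of each cell type with the highest mean count, Klf13 and the 5 genes most like the one with the smallest p. Some genes covered by this rule are not reported here. Genes outside it, such as Lingo4, Rtn4rl2, Rhoa and Rtn3, were named after their values were seen. Promoters came from RefSeq on GRCm38.p6.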

Additional observations from a re-analysis of the deposited data

Results flagged for a closer look

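Rtn4rl1 in control replicate 3 stood apart from the other controls, with 518 normalized counts against 179 to 213. Its gap to the nearest control was 0.898 of the range of the group, above Dixon's limit for 4 samples. Chance alone puts about 5% of such groups past this limit, and the controls of 10 genes were examined. The cause was not tested. Summed RPKM of microglia markers was 1051 in this library and 227.5 to 257.6 in the other controls.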

How the results depend on the processing

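Lingo2, Rtn4 and Omg were lower past the threshold in all 15 alternatives, with log2 fold changes from -1.13 to -0.86, -0.78 to -0.63 and -0.59 to -0.46 and largest adjusted p of 0.0387, 0.0191 and 0.0287 (edgeR or DESeq2). Tnfrsf21 kept its direction in all 15 (-0.34 to -0.24) and its call in 13. Tnfrsf19 kept its direction in all 15 (0.23 to 0.34) and its call in 10. With each library left out in turn, 3 to 4 of the 10 genes were lower and 0 to 1 higher. With the replicate number as a block, 4 were lower and 0 higher, since Tnfrsf19 did not pass, and no other call changed. Within the 4 libraries with over 10% of counts on ribosomal RNA genes, with fewer samples, 3 were lower and 0 higher (Tnfrsf21 -0.34, adjusted p = 0.0589; Tnfrsf19 0.23, adjusted p = 0.195, edgeR), and the other class holds 1 knockout library. Of the genes that did not pass, Lingo1, Rtn4rl1 and Ngfr changed sign, and Lingo3 and Rtn4r did not. Lingo1 ran from -0.0935 to 0.13 with each library left out and was -0.12 within those 4 libraries. Rtn4rl1 ran from -0.30 to 0.42 with each library left out, and was 0.14 with that ribosomal share as covariate and 0.53 within the 4 libraries. Ngfr ran from -0.36 to 1.37 with each library left out, and was 0.30 with the replicate block and 1.95 within the 4 libraries. The cause was not tested. Counts were lowest for Rtn4r, with 18 to 65 in a library.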

Other observations

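Bdnf, which encodes a ligand of p75 and of Ntrk2, was lower in all 3 knockout libraries than in any control without passing the test, and is named after its values were seen. It averaged 112 ± 34.7 normalized counts (SD, n = 4 controls) and 60.1 ± 14.3 (SD, n = 3 knockouts), with a log2 fold change of -0.90 (adjusted p = 0.0584 in the quasi-likelihood test of edgeR). Ntf3 and Ntf5, further neurotrophin genes, had on average 0.971 to 3.11 normalized counts in a group and were not tested.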
